A study of Mus musculus with 16 samples.

Results

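The 4 brachiocephalic artery libraries of Apoe-/-Mif-/- mice after 42 weeks of a Western-type diet were compared with the 4 from mice of that genotype after 24 weeks. These 8 of the 16 libraries were chosen by their genotype and diet labels, 1 mouse each. The brachiocephalic artery is the first branch of the aortic arch and a common site of plaques in mice fed cholesterol. The libraries are numbered 1 to 4 within each group.

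All mice were female and carried the Apoe deletion, which raises plasma cholesterol. They were fed chow until 6 weeks of age and then a diet with 0.2% cholesterol and 21.2% fat. The mice were therefore about 30 weeks old at the end of 24 weeks of diet and about 48 weeks old at the end of 42 weeks, so diet time and age go together. The Mif deletion was carried by both groups compared. The other 8 mice of the series were Apoe-/- with Mif intact, 4 at each time, and serve here as the setting against which the duration effect was tested. Each library pooled lysates of a few frozen sections of 5 µm on which the whole vessel was lysed, so the RNA comes from a mixture of cells. The column names place the 24-week libraries in row C of a plate and the 42-week libraries in row B. Row C held no other library of the series, and all Apoe-/- libraries stood in row B. Plate row and diet time without Mif cannot be told apart, and neither can row and the difference between genotypes given last.

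MIF is a secreted cytokine that attracts and retains leukocytes through CD74, CXCR2 and CXCR4. Plaques hold lipid-laden macrophages, T cells, smooth muscle cells and matrix. Outside the wall of the artery lies perivascular fat, with white and brown adipocytes that make fatty acids, store them as triglyceride under a perilipin coat and, in brown adipocytes, burn them in mitochondria to give heat. Macrophages and other antigen-presenting cells display peptides on MHC class II molecules.

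Total counts ran from 964622 (42-week library 2) to 4383784 (24-week library 3). They averaged 3105590 ± 1570640 (SD, n = 4) at 24 weeks and 2699820 ± 1194910 at 42 weeks (two-sided exact permutation p = 0.657, where 0.0286 is the smallest that 4 against 4 can give). Genes with at least 10 counts numbered 8168 ± 1437 and 6556 ± 2509 (exact permutation p = 0.286). The median Spearman correlation across genes was 0.626 among the 24-week libraries, 0.527 among the 42-week libraries and 0.53 between them. Mif, the deleted gene, was present at 12.8 ± 6.69 CPM (counts scaled to a common library size with edgeR's TMM factors) at 24 weeks and 9.35 ± 5.06 CPM at 42 weeks (exact permutation p = 0.429), against means of 141 and 160 CPM in Apoe-/- arteries. Apoe transcripts, from the gene mutated in every mouse, were present at 40.7 ± 49.3 and 58.2 ± 91.4 CPM. The summed level of 14 smooth muscle genes was 7237, 5624, 17144 and 20470.4 CPM in the 24-week libraries and 21275, 6301, 5010.4 and 5381 CPM in the 42-week libraries. That of 14 endothelial genes was 491, 1992, 1494 and 321 CPM and 3041, 1978, 703 and 3041 CPM, so artery transcripts were found in every library.

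The test across genes found a small set of genes higher at 42 weeks, 3 of which (Thrsp, Car3 and Plin1) belong to the fat lists. Of 10634 genes tested, 13 passed an adjusted p of 0.05 (0.122%, edgeR quasi-likelihood test with Benjamini-Hochberg adjustment). All 13 were higher at 42 weeks, and 0 were lower. At an unadjusted p under 0.05 there were 1391 genes (13.1%), 792 higher (7.45%) and 599 lower (5.63%). The list of 13 changed when single libraries were left out. Without 42-week library 2, 2 genes passed, and 22, 33 and 21 passed without 42-week libraries 1, 3 and 4. None passed when any 1 of 24-week libraries 1, 2, 3 or 4 was left out (1386 to 1502 genes at an unadjusted p under 0.05). Each such fit had a smaller group and filtered the genes anew (11426 to 11904 tested). The counts cannot tell these changes apart from dependence on the mouse left out. The log2 rise of Thrsp was 7.60 to 8.72 in these fits. A log2 fold change above 0 was found for 52.9% of all genes, which is the baseline for the counts above 0 given for lists. The median over all genes was 0.12, so values close to it lie near the middle of the table, and it was 0.54 with the size factors of DESeq2 in place of TMM.

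Thrsp encodes a small nuclear protein that promotes lipid synthesis in fat and liver. It had 1.31, 8.20, 3.45 and 10.2 CPM in the 4 libraries at 24 weeks and 3297, 2825, 13.6 and 536 CPM at 42 weeks. Every 42-week library lay above every 24-week library, although library 3 did so narrowly. Thrsp rose by 8.15 ± 1.39 (SE) on the log2 scale (edgeR adjusted p = 0.0106). In bulk sections a gain of fat cells and a gain of RNA per fat cell cannot be told apart.

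The promoters of Thrsp and of H2-Eb1, the lower gene with the smallest p (described further on), are shown because these 2 genes lead the higher and the lower side of the comparison. They were taken from RefSeq on build GRCm38.p6, from 250 bases before to 50 bases after the start site: Thrsp at chr7:97417501-97417800 on the minus strand and H2-Eb1 at chr17:34305617-34305916 on the plus strand. Capitals mark CCAAT and its reverse complement ATTGG.
Thrsp: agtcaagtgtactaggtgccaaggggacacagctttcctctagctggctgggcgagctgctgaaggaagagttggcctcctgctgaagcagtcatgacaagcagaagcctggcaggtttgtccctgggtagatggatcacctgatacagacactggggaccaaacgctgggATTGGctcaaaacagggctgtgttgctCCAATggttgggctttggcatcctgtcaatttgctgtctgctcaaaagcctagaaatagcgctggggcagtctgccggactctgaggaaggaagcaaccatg
H2-Eb1: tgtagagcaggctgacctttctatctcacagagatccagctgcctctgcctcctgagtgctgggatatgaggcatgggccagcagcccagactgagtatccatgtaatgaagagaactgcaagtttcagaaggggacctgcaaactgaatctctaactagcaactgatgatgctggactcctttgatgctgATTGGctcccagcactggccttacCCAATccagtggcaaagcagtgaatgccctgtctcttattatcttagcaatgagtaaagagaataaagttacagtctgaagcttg
Both windows hold 1 copy in each orientation, with first bases at -79 and -52 from the start site for Thrsp and at -59 and -35 for H2-Eb1. In MHC class II promoters the reversed CCAAT is known as the Y box. The motif is common: CCAAT in either orientation stands in 37.4% of the 32851 promoters of that table. RefSeq promoters were matched for 9 of the 13 called genes, of which 4 held CCAAT. A gene was counted if any of its promoters held the motif, while the percentages are shares of single promoters. Other motifs were searched on both strands. The TATA box (TATAAA) stood in 0 of the 9 and in 13.6% of all promoters. The E-box CACGTG, bound by factors such as ChREBP and the clock proteins, stood in 0 of the 9 and in 7.15% of all. The nuclear receptor core site AGGTCA stood in 1 of the 9 and in 16.3% of all. A match of letters is a description and not a bound site.

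Car3, the carbonic anhydrase abundant in adipocytes, had 3.27, 3.28, 3.86 and 11.1 CPM at 24 weeks and 1613, 2099, 8.86 and 788 CPM at 42 weeks. It was high in libraries 1, 2 and 4, while library 3 lay inside the 24-week range. The rise was 7.71 ± 1.48 on the log2 scale (edgeR adjusted p = 0.0250). Plin1, the perilipin that coats the lipid droplet of adipocytes, had 0.655, 0.410, 0.203 and 0.463 CPM and then 13.9, 458, 1.68 and 378 CPM. The groups did not overlap, and libraries 2 and 4 were far above the others of their group (log2 rise 8.91 ± 1.88, adjusted p = 0.0401).

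**Figure D1:**
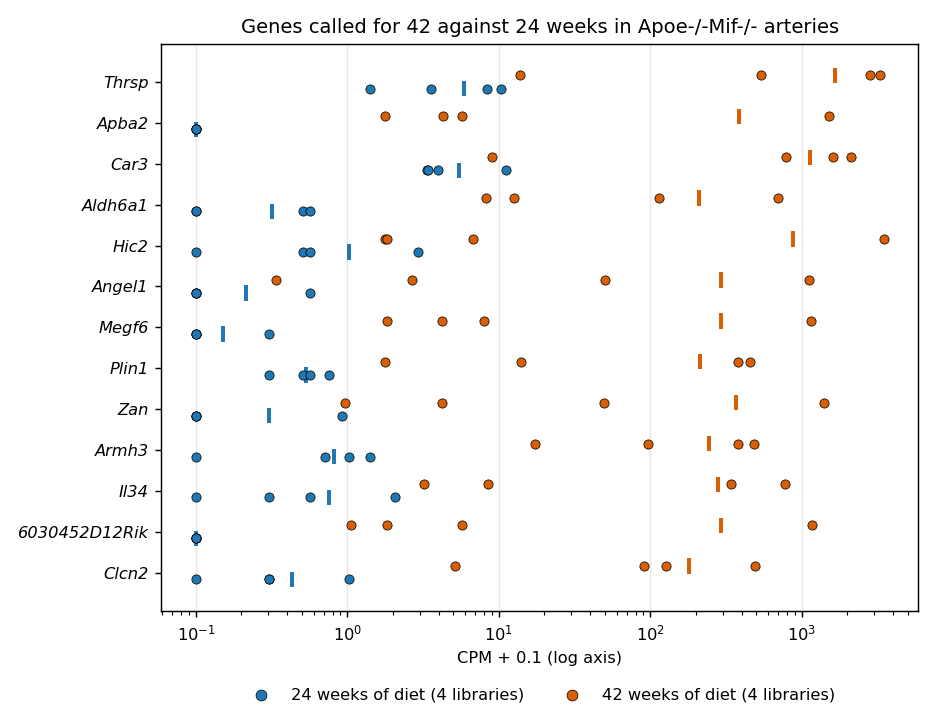
CPM plus 0.1 (log axis) of the 13 called genes in the 4 libraries at 24 weeks (blue) and the 4 at 42 weeks (orange) of Apoe-/-Mif-/- mice, with short bars at the group means. For 10 of the 13 genes every orange point lies to the right of every blue point, as for 1.35% of all genes tested. The 13 were picked by the test of these same libraries, so this is no separate result. For many genes 1 orange point stands far from the other 3.

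Metabolic and transport genes outside the fat lists were also among the 13. Aldh6a1, a mitochondrial enzyme of valine breakdown, had 0, 0, 0.406 and 0.463 CPM at 24 weeks and 114, 698, 12.5 and 8.17 CPM at 42 weeks. Every 42-week library was above the 24-week libraries (log2 rise 9.63 ± 1.95, adjusted p = 0.0401). The 24-week group held 3 counts in all, and the ratio of pooled levels was 389.6 (95% interval 133 to 1893). This interval covers counting error only, since amplified reads without molecular identifiers are not independent molecules. Clcn2, a chloride channel, had 0, 0.205, 0.203 and 0.925 CPM and then 90.9, 494, 5.03 and 126 CPM. Again the groups did not overlap (log2 rise 8.94 ± 1.98, adjusted p = 0.0491).

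Il34 encodes interleukin-34, a ligand of the macrophage receptor CSF1R. It had 1.96, 0, 0.203 and 0.463 CPM at 24 weeks and 3.08, 770.2, 8.38 and 338 CPM at 42 weeks. Libraries 2 and 4 were high, and libraries 1 and 3 lay only just above the highest 24-week library (log2 rise 8.89 ± 1.93, adjusted p = 0.0429). Armh3, an armadillo-like helical protein, had 1.31, 0.615, 0 and 0.925 CPM and then 96.1, 481, 17.2 and 379.7 CPM. All 4 libraries at 42 weeks were well above the 24-week libraries (log2 rise 8.46 ± 1.83, adjusted p = 0.0429).

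A further 5 genes rested mainly on 1 mouse. Apba2, an adaptor protein that binds the amyloid precursor protein, had 0 counts in all 4 libraries at 24 weeks and 5.65, 4.18, 1.68 and 1519 CPM at 42 weeks, where library 4 held 99.2% of its CPM. Set against 3 counts over the 24-week group, its mean was at least 1721-fold higher (edgeR adjusted p = 0.0192). The other 4 peaked in 42-week library 2. Hic2, a zinc finger repressor, had 0, 0.410, 2.84 and 0.463 CPM and then 6.68, 3490.3, 1.68 and 1.72 CPM (log2 rise 9.69 ± 1.98, adjusted p = 0.0401). Angel1, a member of the endonuclease-phosphatase family, had 1 count at 24 weeks and 49.8, 1113, 0.239 and 2.58 CPM at 42 weeks, a ratio of pooled levels of 1329 (95% interval 238 to 52558) (adjusted p = 0.0401). Megf6, a protein with EGF-like repeats, had 1 count at 24 weeks and 4.11, 1153, 7.90 and 1.72 CPM at 42 weeks, a ratio of 1285 (95% interval 230.0 to 50814) (adjusted p = 0.0401). Zan, the sperm protein zonadhesin, had 0, 0.820, 0 and 0 CPM and then 4.11, 1409, 49.6 and 0.860 CPM (log2 rise 10.29 ± 2.18, adjusted p = 0.0401). The remaining called gene, a predicted transcript with 0 counts at 24 weeks, rested on 1 mouse as well, with 99.3% of its CPM in 42-week library 2. Fitted fold changes of genes with so few counts at 24 weeks depend on the small count that the model adds. Of the 13 called genes, 10 had over 50% of the CPM of the 8 libraries in 1 library, as did 40.6% of all genes tested.

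**Figure D2:**
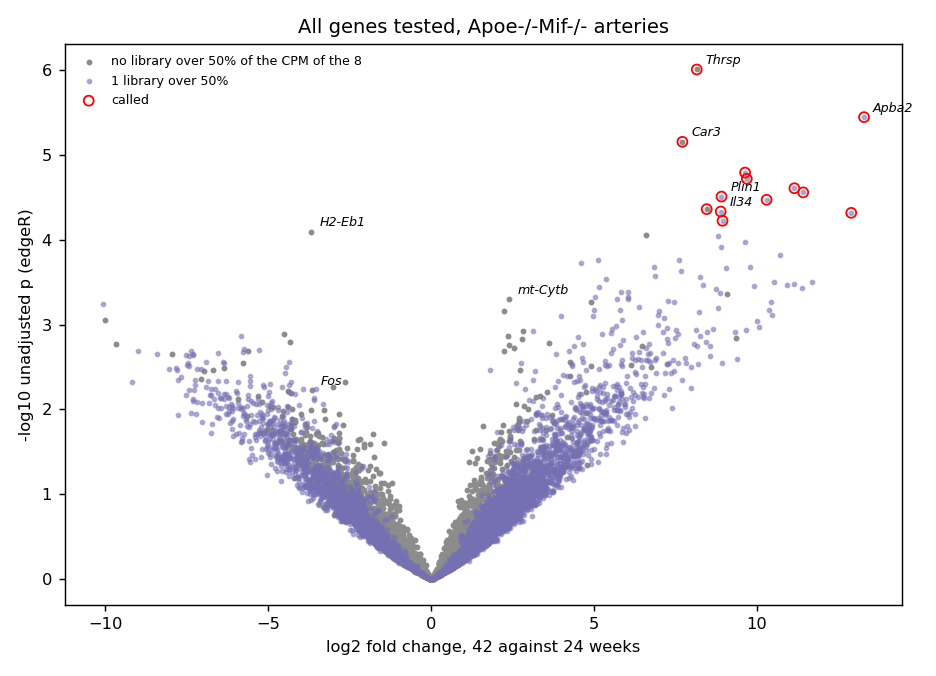
Log2 fold change of 42 against 24 weeks (horizontal axis) and -log10 of the unadjusted edgeR p (vertical axis) for the 10634 genes tested in Apoe-/-Mif-/- arteries. Purple points are genes with over 50% of the CPM of the 8 libraries in 1 library, grey points the others, and red circles the 13 called genes, all on the right.

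The genes next by p did not pass and are given as values. H2-Eb1, the beta chain of the MHC class II molecule I-E, had 838, 288, 933 and 662 CPM at 24 weeks and 52.4, 80.8, 61.3 and 17.2 CPM at 42 weeks. All 4 libraries at 42 weeks lay below all 4 at 24 weeks. The log2 fold change was -3.69 ± 0.83 (edgeR adjusted p = 0.0607), and the adjusted p ran from 0.00577 (DESeq2) to 0.269 (limma voom) over the alternatives tried.

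Among the fat and lipid genes of this next tier, Scd1, the desaturase that makes oleate, had 21.0, 66.2, 136 and 35.2 CPM and then 1256, 4167, 33.0 and 794 CPM (log2 4.59 ± 1.11, adjusted p = 0.0909). Cfd, the complement factor secreted by adipocytes as adipsin, had 9.82, 25.4, 425 and 84.2 CPM and then 4994, 15606, 35.4 and 1816 CPM (log2 5.36 ± 1.34, adjusted p = 0.106). Ces1d, a carboxylesterase of adipocyte and liver lipid turnover, had 1.96, 1.64, 2.64 and 6.94 CPM and then 319.5, 589, 2.39 and 368 CPM (log2 6.59 ± 1.50, adjusted p = 0.0607). In all 3 genes 42-week library 3 lay within or near the 24-week range and the other 3 libraries far above it.

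Other genes down to rank 30 by p had higher means at 42 weeks. Hlf, a clock-linked transcription factor, had 1 count at 24 weeks and 708 at 42 weeks. Trbc1, a T cell receptor beta constant region, had 0.102 and 135 CPM, with 94.8% of it in 1 library. Anxa9, an annexin, had means of 0.987 and 499 CPM, and Orai2, a store-operated calcium channel subunit, 0.547 and 265 CPM. Tcf15, a transcription factor of capillary endothelium in fat and heart, had 1.69 and 354 CPM, and Ncoa1, a nuclear receptor coactivator, 1.64 and 192 CPM. Med13l, a Mediator subunit, and Rab20, a small GTPase, had 1.68 and 336 CPM and 3.85 and 453 CPM. Tmem45b, Tpbgl and Mmp28, the last a metalloproteinase, had 42-week means of 89.6, 167 and 56.6 CPM and 2, 7 and 0 counts at 24 weeks.

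Among the lists with 5 or more tested genes, the highest medians were those of adipokines, triglyceride storage, fast muscle, mitochondrially encoded genes, brown adipocytes, lipogenesis and B cells, in that order. In de novo lipogenesis, 14 of 15 genes had a log2 fold change above 0 and 1, Thrsp, passed, with a median of 2.30 against 0.12 over all genes. Its summed level was 345, 786, 681 and 669 CPM in the 4 libraries at 24 weeks and 7449, 13776, 522 and 3249.8 CPM at 42 weeks. Libraries 1, 2 and 4 were several times above every 24-week library, and library 3 was inside their range. Fasn, the fatty acid synthase, had 58.9, 272, 187 and 19.9 CPM and then 2121, 5373, 26.3 and 989 CPM (log2 3.98 ± 1.09, adjusted p = 0.132).

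Triglyceride assembly and droplet coat genes followed the same libraries, with 349.7, 378, 631 and 245 CPM in sum and then 2402, 7405, 389 and 2877 CPM. Of 12 listed genes 11 were tested, 10 with a value above 0 and 1, Plin1, called (median 2.76, 1.80 without 42-week library 2). Agpat2 and Dgat2, acyltransferases on the way to triglyceride, had log2 values of 5.01 ± 1.31 (adjusted p = 0.113) and 4.90 ± 1.29 (0.114). Lpin1, the phosphatidate phosphatase, lay on the other side with -1.99. Lipolysis genes had a lower median of 1.07, with 6 of 7 tested genes above 0 and none called, and this median was 0.50 without 42-week library 1 and 1.82 without 24-week library 4. G0s2, the inhibitor of adipose triglyceride lipase, had 3.82 and Adrb3, the adrenergic receptor that triggers lipolysis, 4.85, each with over 85% of its CPM in 1 library. Mgll, the monoglyceride lipase, had 1.92.

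Adipokine and adipocyte identity genes had the highest median of these lists, 3.78, with 13 of 15 tested genes (16 listed) above 0 and 1, Car3, called. Their sum was 752, 1655, 1851 and 2913 CPM at 24 weeks and 13874, 28062, 1612 and 7881 CPM at 42 weeks. Adipoq, the adipokine adiponectin, had 0.655, 0.820, 34.9 and 1.39 CPM and then 224, 1720.1, 3.83 and 186 CPM (log2 5.79 ± 1.56, adjusted p = 0.125). Pck1, which makes glycerol phosphate in fat, and Fabp4, the adipocyte fatty acid carrier, had log2 values of 5.52 and 3.60. The regulators of the adipocyte state were closer to the middle: Pparg had 1.08 and Cebpa 0.57. Over the 51 genes of the lipogenesis, triglyceride, lipolysis and adipokine lists, the summed level was 1711, 3375, 3456 and 4123 CPM at 24 weeks and 24426, 50636, 2977 and 15178 CPM at 42 weeks. The 3 fat-rich libraries at 42 weeks are thus 1, 2 and 4, and the highest, library 2, is also the shallowest of the 8. The part of depth in the result was not tested.

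Brown adipocyte genes were more scattered. Of 14 listed genes 10 were tested, 8 above 0 and none called, with a median of 2.33 (2.63 with Elovl3, at 0 counts at 24 weeks, set at its lower bound and Otop1 left out). The sum was 187, 176, 245 and 372 CPM and then 386, 5482, 65.9 and 2704 CPM, with only libraries 2 and 4 well above the rest. Ucp1, the uncoupling protein that gives heat, had 0, 16.8, 0.812 and 2.31 CPM and then 21.1, 1279, 5.99 and 52.9 CPM (log2 6.03 ± 1.58, adjusted p = 0.114). Cidea, a lipid droplet protein of brown fat, and Cox8b, a cytochrome oxidase subunit of brown fat and muscle, had 4.24 ± 1.28 (adjusted p = 0.179) and 3.83 ± 1.17 (0.179). Prdm16, a transcriptional regulator of brown fat, had -2.36.

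**Figure D3:**
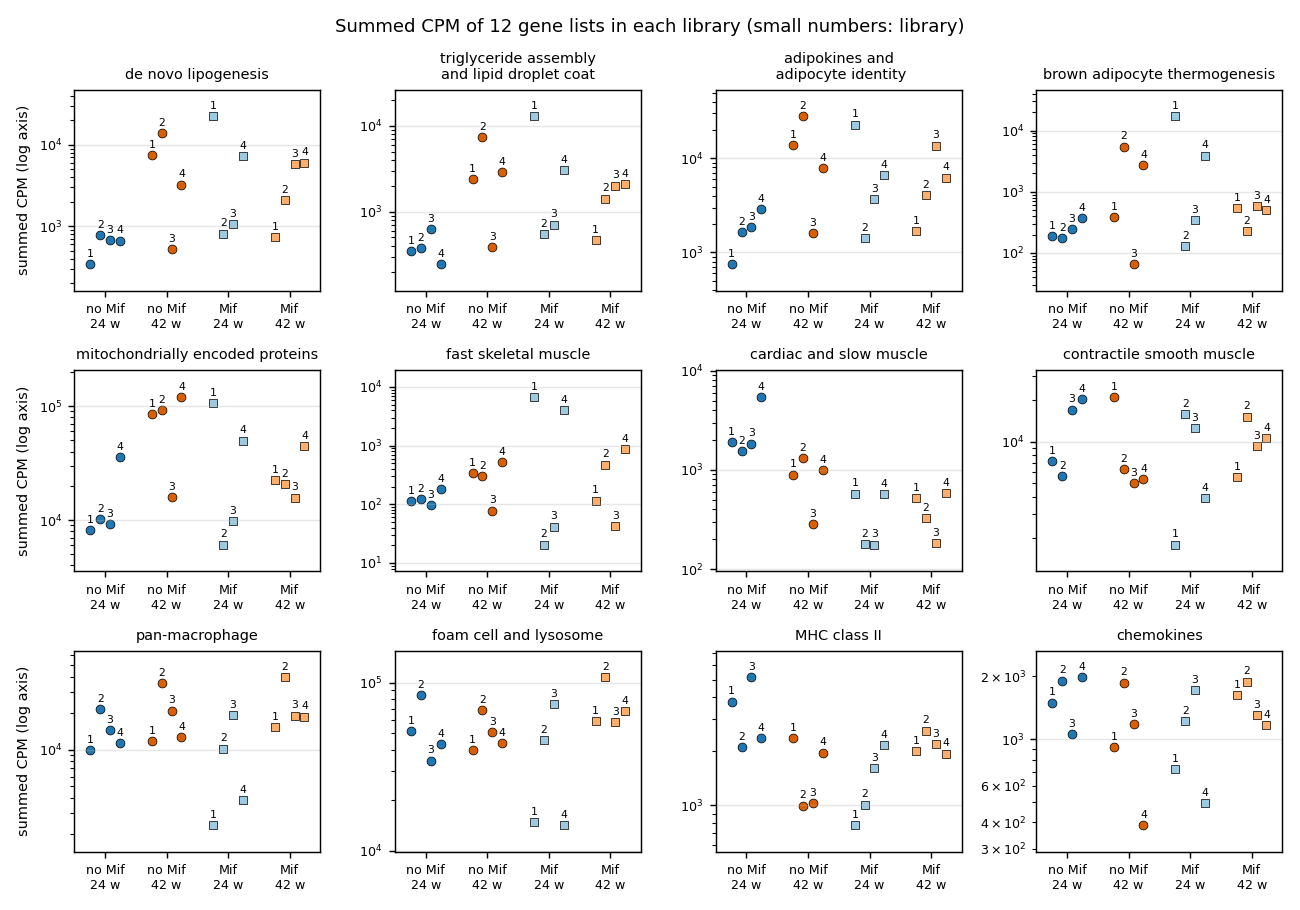
Summed CPM (log axis) of 12 gene lists in each of the 16 libraries. Circles are Apoe-/-Mif-/- libraries at 24 (blue) and 42 weeks (orange), squares the Apoe-/- libraries (light colours), and small numbers name the library. In the fat and mitochondrially encoded panels 42-week libraries 1, 2 and 4 without Mif stand above library 3, and in the cardiac panel all 4 lie below the 24-week libraries.

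Transcripts of the mitochondrial genome were most abundant in the same 3 mice. The 11 tested genes (of 13 listed) all had log2 fold changes between 2.24 and 3.77, and none passed. Their sum was 8212, 10167, 9151 and 35956 CPM and then 85716, 92832, 15934 and 120913 CPM. mt-Cytb, a subunit of respiratory complex III, had 2896, 3473, 3137 and 12236 CPM at 24 weeks and 29829.7, 32276, 5644 and 46121 CPM at 42 weeks. Library 4 is high among the 24-week libraries and library 3 low among the 42-week libraries, so that the ranges overlap (log2 2.39 ± 0.63, adjusted p = 0.114). mt-Co1 of complex IV and mt-Nd1 of complex I had 2.24 ± 0.61 (adjusted p = 0.127) and 2.37 ± 0.68 (0.161). As a share of all counts these transcripts made up 1.57% ± 0.939 (SD, n = 4) at 24 weeks and 5.73% ± 2.78 at 42 weeks. The difference did not pass the exact permutation test (p = 0.0571, adjusted 0.228 over 4 library measures). With the 10 most abundant genes of each library left out they were 1.17% ± 0.163 and 1.46% ± 0.701 (exact permutation p = 0.429). The genes left out include mitochondrial transcripts themselves, such as mt-Cytb, the top gene of 42-week libraries 2 and 4. In 42-week library 4 the share went from 8.33% to 0.502%. This second share removes the signal where it is high, so it cannot show whether the difference depends on a few abundant genes. A high mitochondrial share is also read as a sign of RNA quality in other settings, and its part in the fat result was not tested.

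Nuclear genes of the mitochondrion leaned the same way with smaller values. Of 26 nuclear respiratory chain subunits 24 were above 0 and none passed (median 1.02). Sdha of complex II and Cyc1, cytochrome c1, had log2 values of 2.39 ± 0.97 (adjusted p = 0.290) and 2.14 ± 0.93 (0.325). In the citric acid cycle 12 of 16 were above 0 (median 1.11, but 0.31 without 42-week library 4). Idh3g, a subunit of isocitrate dehydrogenase, and Suclg1, of succinyl-CoA ligase, had 2.72 ± 0.87 and 2.68 ± 1.07 (adjusted p = 0.190 and 0.283). Of 17 tested genes of fatty acid oxidation 11 were above 0 (median 1.42, 0.85 without 42-week library 4). Decr1, which handles unsaturated fatty acids, was above all 24-week libraries in every 42-week library, with 28.3, 71.0, 36.2 and 183 CPM against 22.3, 3.28, 14.4 and 4.63 CPM (adjusted p = 0.372). Acadvl, the very-long-chain dehydrogenase, went the other way, with means of 54.3 and 4.15 CPM (log2 -3.68 ± 1.63, adjusted p = 0.335).

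The fast skeletal list and the cardiac and slow muscle list lay on opposite sides. Fast skeletal muscle genes had a median of 2.48, with 7 of 10 tested genes (15 listed) above 0 and 3 not overlapping, against 1.35% of all genes with every 42-week library above. Atp2a1, the calcium pump of fast fibres, had 0, 0, 0.406 and 0.925 CPM and then 17.0, 5.57, 2.16 and 55.9 CPM (log2 5.81 ± 1.72, adjusted p = 0.173). Tnnt3, a fast troponin, had 3 counts at 24 weeks and 34.4, 12.5, 10.8 and 6.02 CPM at 42 weeks. The list median was 0.46 without 42-week library 1. These levels were low, and Acta1, skeletal actin, had 85.5% of its CPM in 42-week library 4. Mybpc2, a fast myosin-binding protein, had -4.70.

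Cardiac and slow muscle genes lay lower at 42 weeks. Of 12 tested genes (14 listed) 11 had values below 0 (median -1.74), none passed, and 6 had every 42-week library below every 24-week library, as 3.03% of all genes did. Their sum was 1899, 1537, 1844 and 5457 CPM at 24 weeks and 895, 1309, 284 and 994 CPM at 42 weeks, without overlap. Myl7, the atrial myosin light chain, had 439, 346, 415 and 1263 CPM and then 155, 239.6, 39.7 and 113 CPM (log2 -2.17 ± 0.91, adjusted p = 0.314). Nppa, atrial natriuretic peptide, had 212, 167, 186 and 587 CPM and then 68.8, 94.7, 12.7 and 66.2 CPM, and Tnnt2, cardiac troponin T, 276, 274, 394 and 873 CPM and then 134, 192, 41.9 and 132 CPM. In each of these 3 genes 24-week library 4 was the highest of all and 42-week library 3 the lowest. The list median was -0.99 without 24-week library 4.

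MHC class II and chemokine genes had medians on the lower side as well. Of 8 tested MHC class II genes (11 listed) 6 were below 0 and none passed (median -1.04). The median was -1.76 without 42-week library 3 and -0.80 without 42-week library 2. With the size factors of DESeq2 it was -0.69, against 0.54 over all genes. The sum of the MHC class II list was 3776, 2107, 5147 and 2363 CPM and then 2371, 997, 1026 and 1964 CPM, so that the ranges overlapped although H2-Eb1 itself did not. Cd74, the invariant chain and a MIF receptor, had 749, 274, 941 and 233 CPM and then 336, 135, 132 and 129 CPM (log2 -1.58 ± 0.80, adjusted p = 0.396). H2-Aa, an I-A alpha chain, had 875, 387, 1046 and 167 CPM and then 397, 94.7, 163 and 372 CPM (log2 -1.27 ± 0.76, adjusted p = 0.482). Ciita, the transactivator of class II genes, had a log2 value of -2.64.

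Chemokine genes were below 0 in 14 of 16 tested cases (19 listed, median -1.50, -0.93 without 24-week library 1, none called). Ccl5, which draws T cells and monocytes, had 74.0, 28.5, 24.1 and 4.63 CPM and then 2.05, 2.79, 0.239 and 0.860 CPM, without overlap (log2 -4.53 ± 1.89, adjusted p = 0.310). Ccl7, a monocyte attractant, and Ccl19, a lymphoid chemokine, had means of 105 and 10.3 CPM and 52.4 and 2.58 CPM (adjusted p = 0.349 and 0.272). The summed level of the list overlapped between groups, at 1499, 1911, 1063 and 1981 CPM and then 917, 1869, 1185 and 388 CPM. Cytokine and adhesion genes had a median of -0.32, with 6 of 9 tested genes below 0, and it hung on single libraries: it was -3.45 without 42-week library 4 and 0.12 without 24-week library 1. Icam1, the endothelial and macrophage adhesion molecule for leukocyte integrins, had 60.2, 51.5, 123 and 259 CPM and then 1.54, 4.18, 13.2 and 4.73 CPM. The lowest 24-week library lay well above the highest 42-week library (log2 -4.35 ± 1.50, adjusted p = 0.238). Casp1, the inflammasome protease, had means of 17.0 and 0.968 CPM (adjusted p = 0.349). Il1b, the cytokine it matures, had a log2 value of -0.49.

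**Figure D4:**
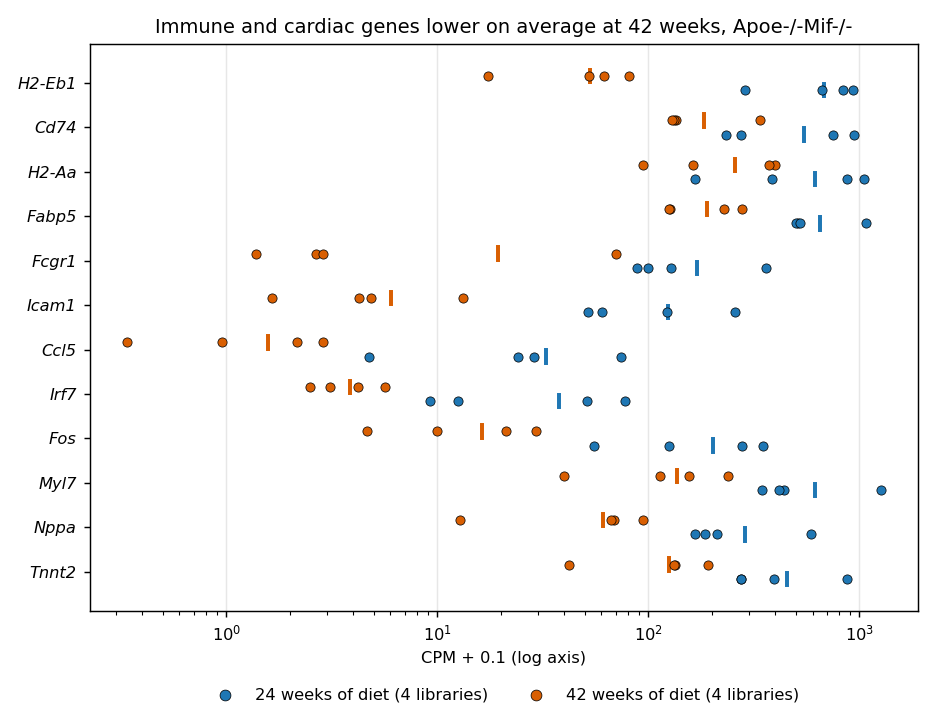
CPM plus 0.1 (log axis) of 12 immune and cardiac genes with lower means at 42 weeks (orange) than at 24 weeks (blue) in Apoe-/-Mif-/- arteries, 4 libraries each, with bars at the means. None of them passed the test across genes. Apart from Cd74 and H2-Aa, the colours do not overlap.

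Interferon response genes were mixed, with 5 of 9 tested genes above 0 (16 listed, median 0.26). The median was -1.62 without 42-week library 1 and 0.44 without 24-week library 1. Irf7, the interferon regulatory factor, had 9.17, 77.3, 51.3 and 12.5 CPM and then 4.11, 5.57, 2.39 and 3.01 CPM (log2 -3.33 ± 1.65, adjusted p = 0.384), and Oas1a, an antiviral synthetase, means of 35.2 and 1.38 CPM.

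Macrophage and foam cell lists lay in the middle. Of 16 macrophage genes 10 were above 0 (median 0.17) and of 20 foam cell and lysosome genes 10 (median 0.01), none called. Leaving out 1 library turned both signs: the macrophage median was -0.04 without 42-week library 2 and 0.41 without 42-week library 4, and the foam cell median -0.18 without 24-week library 3 and 0.37 without 24-week library 2. Lyz2, lysozyme, had 3768, 10038, 5511 and 5802 CPM and then 6369, 19449, 9896 and 8834 CPM (log2 0.83 ± 0.52, adjusted p = 0.502). Fabp5, the fatty acid carrier of macrophages, had 513, 1077, 499.8 and 525 CPM and then 127, 279, 228 and 126 CPM. Every 42-week library was below (log2 -1.79 ± 0.73, adjusted p = 0.293). Fcgr1, the high-affinity IgG receptor, had 128, 99.1, 88.7 and 361 CPM and then 2.57, 2.79, 70.4 and 1.29 CPM (log2 -3.11 ± 1.48, adjusted p = 0.362). Plin2, the droplet coat of foam cells, had means of 812 and 409.5 CPM (adjusted p = 0.545). Spp1, osteopontin, was the most abundant transcript on average at 24 weeks, at 18879.6 ± 9541 CPM, and stood behind mt-Cytb and mt-Co1 at 42 weeks, at 17459 ± 4958 CPM.

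Lymphocyte genes did not move as a block. In the T and NK list 5 of 11 tested genes were above 0 (median -0.05, -0.78 without 42-week library 2 and 0.04 without 42-week library 1). Cd3e, a chain of the T cell receptor complex, had a log2 value of 4.51, the co-receptor Cd4 -3.09 and Trac, the alpha constant region, -0.05. In the B and plasma cell list 5 of 6 tested genes (16 listed) were above 0 (median 2.28, 1.44 without 42-week library 4). At 42 weeks 6 listed genes, Ms4a1, Cr2 and Pax5 among them, were at 0 counts in every library. Ms4a1 and Cr2 were at 0 counts in every 24-week library as well. Ighm, the mu heavy chain, had 18.3, 26.9, 44.6 and 46.7 CPM and then 662, 123, 46.5 and 144 CPM (log2 2.83 ± 1.13, adjusted p = 0.284). Igkc, the kappa light chain, had means of 88.0 and 378 CPM (adjusted p = 0.450). Haemoglobin Hbb-bs, a marker of blood in the section, had 70.1, 781, 455 and 186 CPM and then 1194, 3053, 388 and 631 CPM (adjusted p = 0.384).

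In the vessel wall, 12 of 14 contractile smooth muscle genes were below 0 (median -0.84, none called). The median was -1.32 without 42-week library 1 and 0.04 without 24-week library 4. Mylk, the myosin light chain kinase, had 103, 54.4, 99.4 and 70.8 CPM and then 33.4, 26.5, 28.5 and 9.89 CPM, without overlap (log2 -1.74 ± 1.21, adjusted p = 0.553). Myocd, the coactivator that drives contractile genes, had 0.655, 0, 1.01 and 0.925 CPM and then 304, 4.18, 11.97 and 1.29 CPM, nearly all of it in library 1 (adjusted p = 0.183). Acta2, smooth muscle actin, had a log2 value of -0.32. Endothelial genes were above 0 in 8 of 14 (median 0.21, but -0.21 without 42-week library 4 and 1.17 without 24-week library 2). Kdr, the VEGF receptor, had 1.96, 15.2, 1.42 and 3.70 CPM and then 711, 11.1, 0.958 and 633 CPM (log2 5.90 ± 1.73, adjusted p = 0.168), while Pecam1 and Cdh5 had 0.35 and 0.06. Fibroblast genes were above 0 in 7 of 12 (median 0.19, 0.05 without 42-week library 4 and 0.50 without 42-week library 2). Dcn, decorin, and Gsn, gelsolin, had means of 1810.1 and 5144 CPM and 2347 and 5535 CPM (adjusted p = 0.335 each).

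Matrix and cartilage genes differed between single mice. Collagens lay near 0 (5 of 14 above, median -0.28, -0.59 without 42-week library 4 and 0.11 without 24-week library 4), and elastic fibre and proteoglycan genes below (7 of 17 above, median -0.57, but -0.88 without 42-week library 1 and 0.43 without 24-week library 4). Prg4, the lubricating proteoglycan, had 498, 558, 29.4 and 296 CPM and then 1311, 109, 1724 and 8941 CPM (log2 3.13 ± 0.89, adjusted p = 0.158), and Fmod, fibromodulin, 3.19 ± 1.02 (0.191). Mfap4, a microfibril protein, had -2.91 ± 1.14 (0.278). Among 14 tested osteochondrogenic genes (median 0.30, -0.03 without 42-week library 1 and 0.85 without 42-week library 2), Chad, chondroadherin, had 4.58, 35.5, 5.07 and 13.0 CPM and then 2695, 52.9, 4.79 and 5.16 CPM, and Cytl1, a cartilage cytokine, 211, 154, 83.4 and 176 CPM and then 4127, 78.0, 28.3 and 358 CPM. Both peaks were in library 1. Sox9, the cartilage transcription factor, had -2.74 and lay below in every 42-week library.

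Ageing and handling lists gave single genes rather than shifts. Cdkn1a, the cyclin kinase inhibitor p21, had 174, 103, 226 and 79.1 CPM and then 337, 713, 403 and 739 CPM. Every 42-week library was above, including library 3 (log2 1.91 ± 0.82, adjusted p = 0.321). The senescence list as a whole had 4 of 10 tested genes above 0 (median -0.30, -1.20 without 42-week library 3 and -0.02 without 42-week library 4), and Mmp3, stromelysin, had means of 824 and 2082 CPM (adjusted p = 0.364). Nr1d1, the clock repressor REV-ERB alpha, had 62.2, 18.5, 36.3 and 31.5 CPM and then 667, 71.0, 148 and 507 CPM, without overlap (log2 3.23 ± 1.13, adjusted p = 0.241). Per2, a clock gene of another phase, had 124 counts at 24 weeks and 2 at 42 weeks, and Dbp, a clock output gene, had a log2 value of -2.25. Fos, an immediate early gene, had 279, 55.0, 125 and 349 CPM and then 21.1, 29.2, 4.55 and 9.89 CPM (log2 -3.65 ± 1.25, adjusted p = 0.237). Jun, its partner, had 19.0, 59.7, 18.7 and 13.0 CPM and then 1095, 30.6, 17.5 and 31.0 CPM, high in library 1 alone (adjusted p = 0.272). The cholesterol synthesis list had a median of -0.14 (-0.31 without 42-week library 3 and 0.65 without 24-week library 3). With the size factors of DESeq2 the medians of the cholesterol, senescence, immediate early and T and NK lists were 0.46, 0.00385, 0.43 and 0.71.

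Lists with flat medians were glycolysis (0.08, 11 of 18 above 0), cytosolic ribosomal proteins (0.20, 15 of 22) and heat shock (0.38, 7 of 9). The glycolysis median was -0.33 without 42-week library 4 and 0.33 without 24-week library 4, the ribosomal median -0.01 without 24-week library 1 and 0.53 without 24-week library 4 and the heat shock median -0.02 without 42-week library 1 and 0.69 without 24-week library 1. Eno1, a glycolytic enzyme, and Rpl8, a ribosomal protein, had log2 values of 1.53 ± 0.76 and 0.92 ± 0.57 (adjusted p = 0.383 and 0.500). Ddt, the gene of the MIF homologue D-DT, had 5.89, 19.3, 4.06 and 0.463 CPM and then 1.54, 36.2, 29.5 and 66.7 CPM (log2 2.16 ± 1.64, adjusted p = 0.594).

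The genes whose duration effect differed between the genotypes included fat and fast muscle genes. The interaction, which tests the difference of the 2 duration effects over all 16 libraries, passed for 73 genes (0.686%), 62 higher without Mif (0.583%) and 11 lower (0.103%). At an unadjusted p under 0.05 there were 995 (9.36%) and 517 (4.86%). The duration effect in Apoe-/- arteries alone passed for 0 genes (edgeR), with 412 higher (3.87%) and 889 lower (8.36%) at an unadjusted p under 0.05, while DESeq2 called 330. No gene passed the interaction without 24-week library 1 of Apoe-/- mice, without 42-week libraries 1, 2 or 4 of Apoe-/- mice, or without 24-week library 1 of Apoe-/-Mif-/- mice (1588 to 1860 genes at an unadjusted p under 0.05). Without 24-week libraries 2, 3 or 4 of Apoe-/-Mif-/- mice 18, 21 and 14 genes passed, and 48, 124 and 14 without 42-week library 2 or 3 of these mice or 42-week library 3 of Apoe-/- mice. Without 24-week libraries 2, 3 or 4 of Apoe-/- mice 124, 119 and 47 passed. These 2 effects and their difference share libraries, so each is given by its own values. Of the 73 genes, 66 had over 50% of the CPM of the 8 Apoe-/-Mif-/- libraries in 1 library, as did 40.6% of all genes tested. The Apoe-/- libraries were not part of this share.

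Ucp1 is an example. Its log2 duration effect was 6.03 without Mif and -5.86 with Mif (difference 11.89 ± 2.23, edgeR adjusted p = 0.0136). The means with Mif were 1162 and 20.1 CPM. By library these were 3448, 5.74, 12.8 and 1181 CPM at 24 weeks and 23.2, 12.1, 15.1 and 30.0 CPM at 42 weeks. The high 24-week values thus came from libraries 1 and 4 alone. Plin1 had 8.91 and -3.67 (difference 12.58 ± 2.36, adjusted p = 0.0136), and Thrsp 8.15 and -1.22 (9.37 ± 1.68, adjusted p = 0.0136). With Mif, Plin1 had 708, 1.01, 67.3 and 410 CPM and then 6.32, 2.07, 78.5 and 4.88 CPM. By list, the interaction passed for 4 of 10 tested brown adipocyte genes (Ucp1, Cidea, Cox8b and Elovl3). It passed for 3 of 11 of triglyceride assembly (Plin1, Dgat2 and Gpd1) and 3 of 15 of lipogenesis (Thrsp, Scd1 and Mlxipl). In fast muscle 4 of 10 passed (Atp2a1, Tnnt3, Acta1 and Myh4), and in the adipokine list 1 of 15 (Pck1). The T and NK, clock and endothelial lists had 1 each (Trbc1, Hlf and Kdr), and MHC class II had H2-Eb1 on the lower side. The share over all genes was 0.686%. Gpihbp1, the capillary anchor of lipoprotein lipase, had log2 effects of 6.04 and -4.85, and Kdr 5.90 and -3.74. In Apoe-/- arteries the summed level of the 51 fat genes was 66849.9, 3127, 5899 and 18642 CPM at 24 weeks and 3187, 8319, 22881 and 16241 CPM at 42 weeks. The highest of all 16 libraries is thus 24-week library 1 of Apoe-/- mice. Fast muscle genes in Apoe-/- arteries summed to 6806, 20.6, 41.8 and 3977 CPM at 24 weeks and 116, 473, 42.1 and 861 CPM at 42 weeks. Their high values at 24 weeks thus came from libraries 1 and 4 alone. Without Mif they summed to 115, 124, 98.2 and 182 CPM and then 345, 306, 78.1 and 528 CPM. The part of muscle in the sections was not tested. Apart from 24-week library 1, the summed fat level of Apoe-/- arteries spanned similar ranges at 24 and 42 weeks. The part of the summed fat level in the interaction was not tested.

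H2-Eb1 was among the 11 genes on the other side. Its means were 680 and 52.9 CPM without Mif and 218 and 477 CPM with Mif, a difference in log2 effects of -4.82 ± 1.11 (adjusted p = 0.0388). For other lists the medians stood apart without a passed gene: foam cell and lysosome genes had 0.01 without Mif and 1.59 with Mif, macrophage genes 0.17 and 1.39, and chemokines -1.50 and 1.17. The medians over all genes were 0.12 and -0.12, and these list differences were not tested. With Mif the foam cell list summed to 14730.5, 45784, 74474 and 14181 CPM at 24 weeks. At 42 weeks it summed to 59113, 107840, 58606 and 67597 CPM. In each of these lists the lowest 24-week sums with Mif were those of libraries 1 and 4, which had the highest fat and fast muscle sums.

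**Figure D5:**
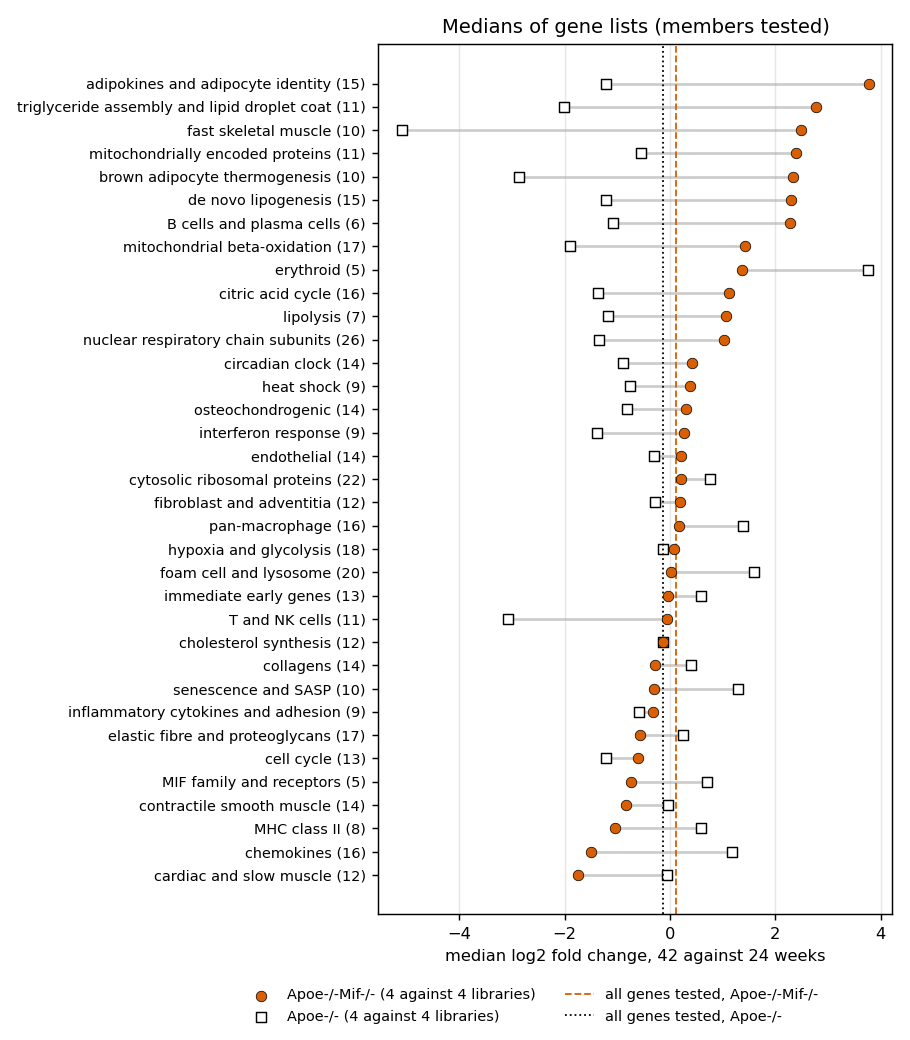
Median log2 fold change of 42 against 24 weeks for the lists with at least 5 tested genes (number tested in brackets), in Apoe-/-Mif-/- (orange circles) and Apoe-/- arteries (white squares), 4 against 4 libraries each. Dashed and dotted lines are the medians of all genes tested, 0.12 and -0.12. The adipocyte, mitochondrial and fast muscle lists lie to the right of the lines without Mif and to the left with Mif.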

How the data were processed

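Per the labels' protocols, polyadenylated RNA (1 ng) was amplified by Smart-seq2, which gives neither strand nor molecular identifiers, and sequenced as 100 bp read pairs. Per the submitters' processing notes, cutadapt 1.18, Trim Galore 0.6.4, FastQC 0.11.5 and STAR 2.5.2b were used with GRCm39; the counting program is not given in the sources used here. The deposited table held whole-number counts per gene, with no normalization. 1 row without a name (at most 0.00257% of a library) and 2 reporter rows were left out. A second deposited table, of variance-stabilised log2 values made by the authors, served as an alternative. The tests across genes ran in R 4.3.3 on these counts with edgeR 4.0.16 (quasi-likelihood, TMM scaling, filterByExpr with a minimum count of 10, 1 fit of all 16 libraries with 12 residual degrees of freedom, Benjamini-Hochberg adjustment over 10634 genes). CPM values were computed from these counts. Single values were compared by two-sided exact permutation over 70 splits. Scripts were tested on simulated counts. Alternatives used limma 3.58.1 and DESeq2 1.42.0, other filters and scalings, and left out single libraries.

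The members and the 40 lists were chosen with earlier results of these data known. Named were Mif and Apoe, all called genes and those next by p up to 30, the list members called or with the smallest p, and the genes with the most reads, leaving out predicted genes; some genes are not reported here. Other members printed, and Sorl1, Rrad, Tbxa2r and Capn1, were chosen after their values were seen. Reads of paralogs and of genes overlapping on the other strand may be mixed in these counts. Each library came from a separate mouse, and library numbers follow accession order.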

Additional observations from a re-analysis of the deposited data

Results flagged for a closer look

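In 53 of 196 groups of 4 libraries examined, 1 library stood far above the other 3. Chance flags about 1 in 20 groups of normally distributed values, but CPM are skewed to the right and these genes were picked by their p, so that rate is no measure for this count. The ratio of its gap to the whole range follows each name. No count floor was set, and a ratio of 1 means that the other 3 libraries had 0 counts. At 24 weeks the library flagged with a ratio of 1 held 1 count of Megf6, Hlf or Angel1 and 4 of Zan. At 42 weeks, library 1 stood apart for Orai2 (0.997), G0s2 (0.966), Myocd (0.965), Chad (0.982), Cytl1 (0.92), Cd74 (0.971), Ighm (0.841) and Jun (0.987). At 42 weeks, library 2 stood apart for Aldh6a1 (0.846), Hic2 (0.999), Angel1 (0.955), Megf6 (0.995), Zan (0.965), Trbc1 (0.958), Med13l (0.982), Tmem45b (0.941), Tpbgl (0.835), Adrb3 (0.947), Adipoq (0.871), Ucp1 (0.963), Mfap4 (0.903) and Ccl7 (0.878). At 42 weeks, library 3 stood apart for Apoe (0.861) and Fcgr1 (0.978). At 42 weeks, library 4 stood apart for Apba2 (0.997) and Acta1 (0.967). At 24 weeks, library 2 stood apart for Megf6 (1), Zan (1), Anxa9 (0.859), Hlf (1), Rab20 (0.894), Mgll (0.864), Ucp1 (0.862), Kdr (0.834), Fabp5 (0.956) and Jun (0.871). At 24 weeks, library 3 stood apart for Hic2 (0.837), Adrb3 (0.958), Adipoq (0.979) and Sdha (0.841). At 24 weeks, library 4 stood apart for Car3 (0.926), Angel1 (1), mt-Cytb (0.938), mt-Co1 (0.923), mt-Nd1 (0.871), Myl7 (0.898), Nppa (0.893), Gsn (0.9), Fcgr1 (0.857), Ccl19 (0.935), Tbxa2r (0.913), Capn1 (0.965) and the mitochondrially encoded share (0.94).

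The duration effect differed between the genotypes for 73 genes by the interaction test. For 26 of them with values printed here, the difference in log2 effects, without Mif minus with Mif, stands in brackets (for genes with under 4 counts in a group this depends on the small count that the model adds). It was above 0 for Thrsp (9.37), Apba2 (11.6), Aldh6a1 (10.8), Angel1 (10.8), Plin1 (12.6), Zan (10.9), Armh3 (9.22), Clcn2 (11.9), Ces1d (10.6), Anxa9 (11.1), Trbc1 (12.7), Hlf (14.9), Scd1 (5.71), Tmem45b (13.0), Tcf15 (10.1), Tpbgl (10.3), Mmp28 (15.1), Dgat2 (9.27), Ucp1 (11.9), Cidea (8.85), Cox8b (7.93), Atp2a1 (11.7), Tnnt3 (11.3), Acta1 (8.99) and Kdr (9.64), and below 0 for H2-Eb1 (-4.82). The deposited counts include 2 reporter rows, and 1 of them is GFP, a reporter that no label names. The sum of both rows was up to 10 counts in a library without Mif (42-week library 4) and up to 7 in an Apoe-/- library.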

How the results depend on the processing

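The count of 13 genes became 22 with the size factors of DESeq2 (13 shared), 419 without the filter on low counts (365 higher and 54 lower, 13 shared), 9 under a stricter filter (20 counts in 4 libraries), 12 with the robust fit (1 of them lower), 12 in a fit of only the 8 libraries (5 shared), 0 with limma voom (736 at an unadjusted p under 0.05), 2 with limma on the deposited values and 539 with DESeq2 (414 higher and 125 lower, 7 shared). Leaving out 1 library at a time gave 0 to 33 calls, with 11426 to 11904 genes passing the filter for smaller groups. The interaction gave 426 genes without the filter, 0 with limma voom (667 unadjusted), 0 with limma on the deposited values (649 unadjusted), 480 with DESeq2 and 0 to 124 with single libraries left out, against 73. The effect in Apoe-/- gave 18 genes without the filter and 330 with DESeq2, against 0. Mif had log2 fold changes of 0.11 with the size factors of DESeq2 in edgeR, 0.0101 with limma on the deposited values, 0.0859 with DESeq2 and -0.73 to 0.00546 with single libraries left out (the highest without 24-week library 4), against -0.47. Apoe had -1.74 (without 42-week library 3) to 1.74 with single libraries left out, against 0.52. These were the only reversals among 1471 values under the alternatives, of which 1270 kept their side of the threshold. The values cover part of the named genes, mostly picked by a small p, and the counts of non-overlapping genes given next. Genes picked by p seldom change sign, so the number of reversals says nothing about the other genes named. Chosen after seeing the data, the count of non-overlapping genes (144 above and 322 below) was 202 and 223 with the size factors of DESeq2 and 87 and 442 with library totals, so the share above was 30.9%, 47.5% and 16.4%. No paired analysis was possible because each mouse belongs to 1 group and the numbers of libraries only name them. With 4 libraries a group and as few as 964622 counts, genes with few counts give wide errors, and intervals cover counting error only.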

Other observations

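Genes lower at 42 weeks made up the larger part of those without overlap, with 322 (3.03%) against 144 higher (1.35%), under TMM scaling. With the size factors of DESeq2 they were 223 and 202. Besides the genes of the report, 4 with a small p were picked after seeing their values. Sorl1, a sorting receptor of endosomes and the Golgi, had 69.4, 39.99, 247 and 296 CPM at 24 weeks and 7.71, 4.18, 14.6 and 1.29 CPM at 42 weeks (log2 -4.52 ± 1.30, edgeR adjusted p = 0.158). Rrad, a small GTPase that inhibits calcium channels, had 79.2, 73.2, 325 and 385 CPM and then 12.3, 16.7, 7.90 and 6.45 CPM (log2 -4.32 ± 1.27, adjusted p = 0.173). For both, all 4 libraries at 24 weeks contributed. Tbxa2r, the thromboxane receptor of platelets and smooth muscle, had 26.2, 36.9, 13.8 and 279 CPM and then 1.03, 1.39, 0.958 and 3.01 CPM (adjusted p = 0.179), and Capn1, the protease calpain-1, 5.24, 10.9, 19.1 and 398 CPM and then 3.60, 0, 1.68 and 1.72 CPM (adjusted p = 0.161). In these 2 genes 24-week library 4 held most of the signal. Tubb3, a neuronal tubulin, had 44.5, 24.4, 32.1 and 6.48 CPM and then 2.57, 1.39, 0.958 and 3.01 CPM (log2 -3.73 ± 1.67, adjusted p = 0.342), also without overlap.

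Neighbouring tissues left uneven traces. Thyroid and parathyroid genes summed to 3.93, 0.205, 0.406 and 6.48 CPM at 24 weeks and 16.4, 13.9, 228 and 4.73 CPM at 42 weeks, highest in 42-week library 3, which was low in fat. Thymocyte genes summed to 0, 1.03, 25.4 and 0.925 CPM and 292, 51.5, 21.3 and 3.87 CPM, with Rag2 at 0 counts in both groups. Airway epithelium and cartilage genes summed to 15.1, 13.3, 29.0 and 51.8 CPM and 457, 55.7, 5.75 and 108 CPM, highest in 42-week library 1, which also held the peaks of Chad and Cytl1. Krt5 and Foxj1 were at 0 counts in every library of both groups. Nerve and Schwann cell genes summed to 516, 169, 438 and 440.4 CPM and 32.9, 109, 406 and 1116 CPM.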
